A study of Homo sapiens with 10 samples.

Results

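The 10 genes described here encode the core of transforming growth factor-beta (TGF-beta) signalling: 3 ligands (*TGFB1*, *TGFB2*, *TGFB3*), 3 receptors (*TGFBR1*, *TGFBR2*, *TGFBR3*) and 4 SMADs (*SMAD2*, *SMAD3*, *SMAD4*, *SMAD7*). They were chosen by symbol, and all 10 were present among the 19695 genes of the deposited count tables. TRPS1 is an atypical GATA transcription factor, and CHD4 is the ATPase of the NuRD chromatin-remodelling complex. The study asked which genes TRPS1 occupies, by chromatin immunoprecipitation sequencing (ChIP-seq), and which genes change when *TRPS1* or *CHD4* is silenced, by RNA-seq. Both assays used T47D cells, a luminal breast cancer cell line. RNA-seq covered 3 groups of 2 libraries, collected 72 h after transfection. The first group received control siRNA, the others siRNA to *TRPS1* or to *CHD4*. All 3 groups were thus transfected, and all came from this single line. The labels call the *CHD4* reagent an siRNA, while the RNA-seq methods call it an shRNA. ChIP-seq comprised 2 TRPS1 ChIP and 2 input libraries, from which 1 list of 1844 peaks was deposited.

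TGF-beta ligands are secreted in a latent form, and the released ligand brings the type II receptor TGFBR2 together with the type I receptor TGFBR1. TGFBR1 then phosphorylates SMAD2 and SMAD3, which enter the nucleus with SMAD4 and act on target genes. TGFBR3 (betaglycan) is a co-receptor that presents ligand, TGF-beta 2 above all, and SMAD7 is an inhibitory SMAD that TGF-beta itself induces. In breast epithelium the pathway is known for arresting growth and for driving epithelial-mesenchymal transition.

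The libraries held 10333138 to 14668358 counts. The silenced genes were checked first. *TRPS1* was at 1418 and 2323 CPM with control siRNA and 1149 and 727 CPM with *TRPS1* siRNA, a log2 fold change of -0.97 ± 0.39 (SE). This 1.96-fold decrease (edgeR's quasi-likelihood test, unadjusted p = 0.0459, adjusted p = 0.659) fell just short of the fold change over 2 that the study asked. *CHD4* was at 295 and 292 CPM with control siRNA and 96.2 and 54.2 CPM with *CHD4* siRNA, a log2 fold change of -1.96 ± 0.42 (same test, unadjusted p = 0.00186, adjusted p = 0.784). CPM are read counts scaled to library size, normalised over the 6 libraries by the TMM method. Control siRNA replicate 1 stood apart from the other libraries. It lay at -114.5 on the first principal component, which held 63.4% of the variance, while the other 5 libraries lay between 9.44 and 30.7. The control replicates correlated at r = 0.881 across genes, against 0.976 for the *TRPS1* siRNA and 0.967 for the *CHD4* siRNA replicates. The comparisons of the 10 genes with control siRNA are therefore also given without that library. All 9 luminal breast epithelium markers were detected in every library. No label says that replicates were separate cultures, so p-values measure only the spread between these libraries.

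The first question was whether TRPS1 peaks lie at these loci. *SMAD7* was the only gene of the 10 with a peak within 5 kb of an annotated transcription start site. It lies on the minus strand at chr18:48919853-48950965 (hg38, GRCh38.p14), and the peak chr18:48948443-48948756, 314 bp wide, fell inside the gene. That peak was 577 bp downstream of the nearest of the 3 annotated *SMAD7* starts and 2209 bp downstream of the first. *TGFB2*, on the plus strand at chr1:218345336-218444619, had the next nearest peak. The peak chr1:218339272-218339572, 301 bp wide, lay 5764 bp upstream of the single annotated *TGFB2* start, just outside the 5 kb limit. The start of the antisense gene *TGFB2-AS1* was 6106 bp from the same peak, and no other gene started within 50 kb of it. Another peak, chr1:218480800-218481081, lay beyond the 3′ end of *TGFB2*, 29.0 kb from the start of the non-coding gene *LINC02869*.

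*TGFB1* (chr19:41330323-41353922, minus strand) had a peak 43.5 kb downstream of its start, but that peak was 45 bp from the start of *CCDC97*. The nearest peak was 245 kb from a *TGFB3* start, and 957 kb or farther from any start of *TGFBR1*, *SMAD2*, *SMAD3*, *SMAD4*, *TGFBR3* and *TGFBR2*. Thus 1 of 10 genes had a peak within 5 kb, against 3.29% of 15843 protein-coding genes. A peak inside the gene was likewise found for 1 of 10, against 4.26%. At 50 kb the count was 3 of 10, against 10.6%, and at 100 kb it was still 3, against 18.0%. The set was defined with *TGFB2* already known as the nearest gene of a peak, so these counts are a description and no test. The peak list gives positions only, so the strength of these peaks was not compared.

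**Figure D1:**
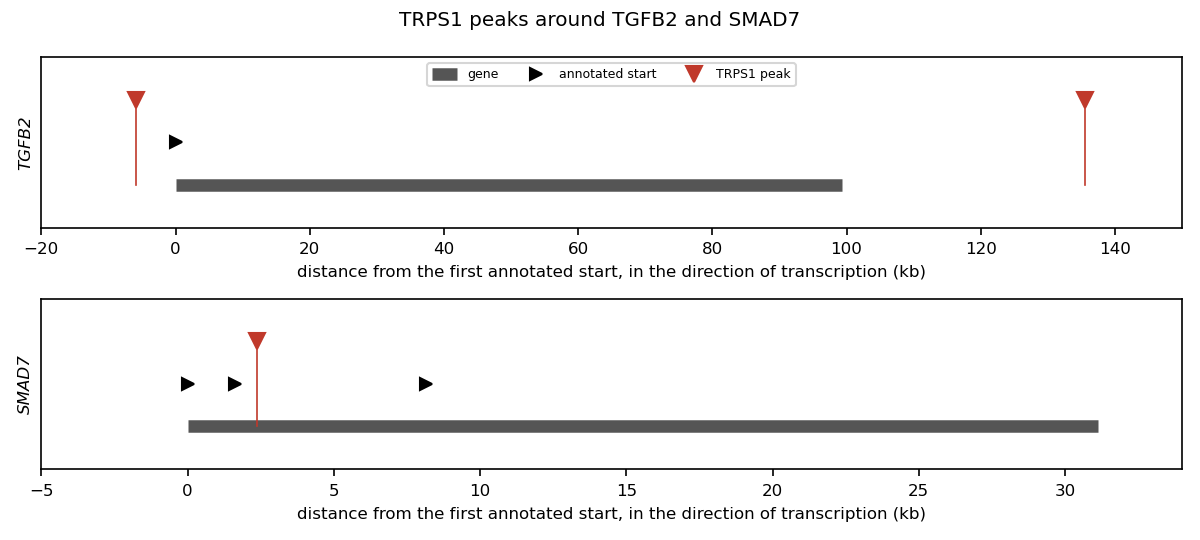
TRPS1 peaks around *TGFB2* (upper panel) and *SMAD7* (lower panel), as distance in kb from the first annotated start in the direction of transcription, with the gene as a bar, annotated starts as black triangles and peaks as red markers. One *TGFB2* peak lies 5.76 kb before its single start and the other beyond the end of the gene, and the *SMAD7* peak lies inside the gene, after the first and the next of its 3 starts.

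The sequences at the first annotated starts of *TGFB2* and *SMAD7* are shown because these genes had the nearest peaks. The *TGFB2* sequence (265 bases) runs past the start, while the *SMAD7* sequence (250 bases) ends before it. They are from RefSeq (GRCh38.p14), 5′ to 3′ on the strand of the gene. Capitals mark any GATA word, searched on both strands as the letters AGATAA or as AGATAG, and likewise with T as the first letter (TGATAA or else TGATAG), which is the form of the element that GATA factors bind.
TGFB2: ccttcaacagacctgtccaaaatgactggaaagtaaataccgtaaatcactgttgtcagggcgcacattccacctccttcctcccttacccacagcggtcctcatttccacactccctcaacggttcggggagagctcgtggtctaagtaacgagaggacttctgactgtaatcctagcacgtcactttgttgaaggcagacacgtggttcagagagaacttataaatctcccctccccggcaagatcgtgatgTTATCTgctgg
SMAD7: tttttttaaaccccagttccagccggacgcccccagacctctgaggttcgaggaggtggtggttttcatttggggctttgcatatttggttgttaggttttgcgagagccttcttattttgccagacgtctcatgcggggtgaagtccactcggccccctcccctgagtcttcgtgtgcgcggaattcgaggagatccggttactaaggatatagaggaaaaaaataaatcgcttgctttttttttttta
The *TGFB2* sequence covers chr1:218345086-218345350 and holds 1 GATA word, TTATCT on the shown strand, which begins 5 bases after the start. The *SMAD7* sequence covers chr18:48950966-48951215 and holds none. The *TGFB2* word lies in the stretch after the start, which the *SMAD7* sequence does not include. Before the start, neither sequence holds a GATA word. Over windows from 250 bases before to 50 after each annotated start, 8769 of 35116 (25.0%) held such a word. Of the 26 windows of the 10 genes, 7 (26.9%) held one, at *TGFB2*, *TGFBR1* and *SMAD3*. Neither peak overlaps the printed sequences.

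Upon silencing *TRPS1*, *TGFBR3* and *SMAD7* were lower and passed the study's threshold of a fold change over 2 with an unadjusted p under 0.05. *TGFB2* was higher and passed too, but it entered the tested set only through the silenced libraries and so had to differ. It is described below by its counts. With over 2 CPM asked in every library, 2 genes (*TGFBR3* and *SMAD7*) passed. The same threshold took 5.87% of the 12921 genes tested, 2.70% higher and 3.17% lower. None of the 10 genes passed an adjusted p of 0.05 with edgeR's quasi-likelihood test and Benjamini-Hochberg adjustment, nor did any other gene. At an unadjusted p under 0.05, 902 genes (6.98%) were counted, and over all genes the adjusted threshold was passed by 34 genes with edgeR's likelihood ratio test and 39 with DESeq2. *TGFBR2* was below the filter on low counts, so 9 of the 10 genes were tested. The libraries of the 2 groups did not overlap for 4 of these 9, 1 higher (*TGFB2*) and 3 lower (*TGFB3*, *TGFBR3*, *SMAD7*), against 44.0% of all genes tested (21.5% higher and 22.5% lower). The median log2 fold change of the 9, *TGFB2* included, was -0.07, against -0.02 over all genes tested.

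Upon silencing *CHD4*, the only one of the 10 genes past the study's threshold was *TGFB2*, which again entered the tested set through the silenced libraries. DESeq2 and the filter of over 2 CPM in every library each left 0 genes, and without control siRNA replicate 1 *TGFB1* passed as well. Of all 12918 genes tested, 5.45% passed (2.60% higher and 2.85% lower). Again 9 were tested and no gene of the table passed the adjusted threshold, with 769 genes (5.95%) at an unadjusted p under 0.05, 58 genes called by the likelihood ratio test and 50 by DESeq2. Groups did not overlap for 1 gene that was higher (*TGFB2*) and 2 that were lower (*TGFBR3*, *SMAD7*), against 39.5% of all genes (18.8% higher and 20.7% lower). The median of the 9 log2 fold changes was 0.23, against -0.02 over all genes. It includes *TGFB2*, which had to be higher, so no shift of the set is read from it. Both comparisons share their control libraries.

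**Figure D2:**
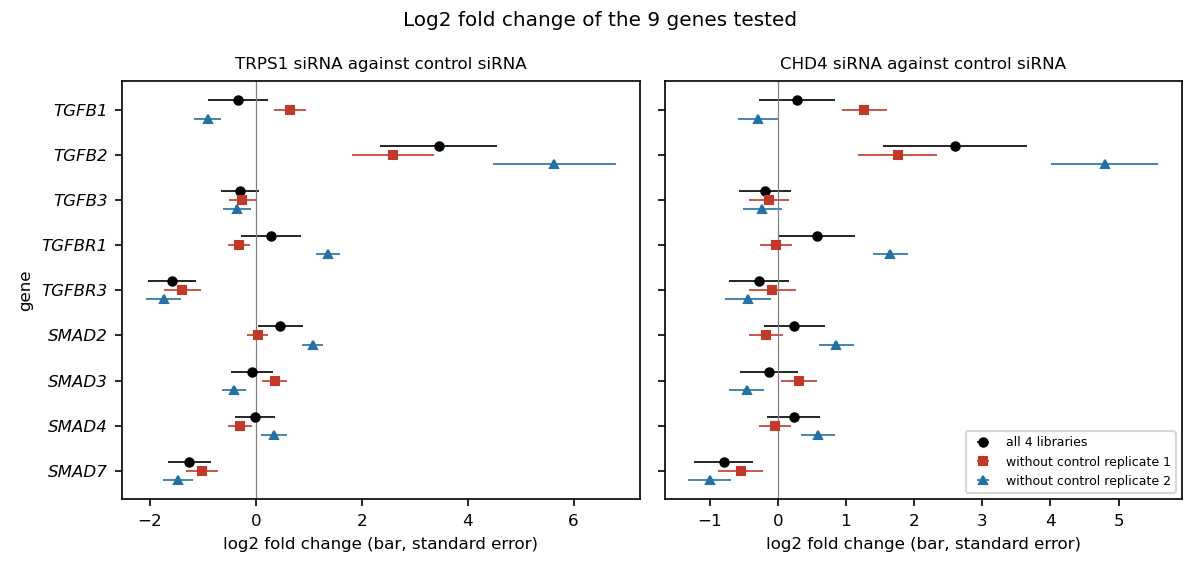
Log2 fold change against control siRNA of the 9 genes tested, for *TRPS1* siRNA (left) and *CHD4* siRNA (right), with all 4 libraries (black circles), without control siRNA replicate 1 (red squares) and without replicate 2 (blue triangles), and bars of 1 standard error. *TGFB2* lies above 0 in every fit, *TGFBR3* and *SMAD7* lie below 0 in every fit, and *TGFBR1* with *TRPS1* siRNA lies at 0.28, -0.32 and 1.36.

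Among the ligands, *TGFB2* differed most. Its counts were 1 and 9 with control siRNA, 66 and 32 with *TRPS1* siRNA, and 27 and 26 with *CHD4* siRNA. In CPM these were 0.0719 and 0.695, 6.24 and 2.12, and 2.53 and 2.08. All 4 silenced libraries lay above both control libraries, and *TRPS1* siRNA replicate 1 was the highest.

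Control siRNA replicate 1 lay under the limit of 3 counts, which corresponds to 0.198 to 0.284 CPM in these libraries. The ratio of summed *TGFB2* counts, scaled for library size, was 10.2 with *TRPS1* siRNA (exact 95% interval 5.34 to 22.0, counting error only). Without control siRNA replicate 1 the ratio was 5.49 (2.78 to 12.4). As a description, the *TGFB2* log2 fold change in edgeR's fit was 3.45 ± 1.11 (SE), with no test read from it. It was 2.58 without control siRNA replicate 1 and 5.64 without replicate 2. Without *TRPS1* siRNA replicate 1 or 2 the gene left the tested set, and with no filter on low counts its values were then 2.43 and 4.02.

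With *CHD4* siRNA the ratio of *TGFB2* counts was 6.15 (3.09 to 13.5), and 3.29 (1.61 to 7.59) without that library. The fitted log2 fold change was 2.59 ± 1.06, and 1.76 without control siRNA replicate 1 and 4.80 without replicate 2. The silenced groups overlapped, and *CHD4* siRNA against *TRPS1* siRNA gave a log2 value of -0.83 ± 0.57 (edgeR adjusted p = 0.549). Without *TRPS1* siRNA replicate 1 this became 0.13. The antisense partner *TGFB2-AS1* had 0 to 3 counts in each library, and reads of overlapping genes cannot be told apart because the strand setting of the counting was not given.

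Markers of other cell types were followed beside *TGFB2*. The mesenchymal marker *VIM* had 24 and 38 counts with control siRNA, 180 and 34 with *TRPS1* siRNA, and 12 and 18 with *CHD4* siRNA. Its highest library, *TRPS1* siRNA replicate 1, was also the highest for *TGFB2*. *CDH2* was highest there too (11 counts), but *COL1A1* was highest in control siRNA replicate 1, at 153 CPM against 104 CPM. *PDGFRB* had 0 and 1, 2 and 10, and 21 and 22 counts in the same order. Of 6 mesenchymal markers, 1 to 3 were at 0 in each library. Their summed level, most of it *COL1A1*, was 156 and 68.3 CPM, 123 and 83.6 CPM, and 92.5 and 62.8 CPM in that order. Without *COL1A1* the sum was 2.30 and 3.40 CPM, 18.2 and 3.04 CPM, and 3.75 and 3.76 CPM. The 3 leukocyte and endothelial markers summed to at most 0.240 CPM, with 2 or 3 of 3 at 0. The 9 luminal markers summed to 14434 and 11717 CPM with control siRNA and 5302 to 7109 CPM in the silenced libraries, and *KRT8*, a luminal keratin, differed by -1.88 and -1.85 on the log2 scale. The luminal markers did not all move this way. With *TRPS1* and *CHD4* siRNA, *EPCAM* was at 0.37 and 0.28, *FOXA1* at -0.25 and 0.21, and *CDH1* at -0.16 and -0.29, all with overlapping groups. Groups did not overlap for 4 and 5 of the 9, all lower, against 44.0% and 39.5% of all genes in either direction. The part of these markers in the results was not tested. In bulk RNA, fewer cells of a kind and less RNA per cell cannot be told apart.

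*TGFB1*, the ligand best known from tissue fibrosis and immune control, had 40.5 and 14.4 CPM with control siRNA, 18.2 and 25.3 CPM with *TRPS1* siRNA, and 29.1 and 38.0 CPM with *CHD4* siRNA. The control libraries lay at both ends of the range, with all 4 silenced libraries between them. The log2 fold change with *CHD4* siRNA was 0.28 ± 0.55 with both control libraries and 1.27 without control siRNA replicate 1 (edgeR unadjusted p = 0.00637, adjusted p = 0.198), which passed the study's threshold. With *TRPS1* siRNA the values were -0.34 ± 0.56 and 0.64. Between the silenced groups, *TGFB1* was higher with *CHD4* siRNA and the libraries did not overlap (0.62 ± 0.24, edgeR unadjusted p = 0.0397, adjusted p = 0.294).

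*TGFB3*, a ligand with a known part in palate and mammary development, had 95.4 and 93.3 CPM with control siRNA, 90.4 and 60.9 CPM with *TRPS1* siRNA, and 97.2 and 68.1 CPM with *CHD4* siRNA. Replicate 2 was the lower library in both silenced groups. The log2 fold changes of -0.31 ± 0.36 and -0.18 ± 0.38 were smaller than their errors, although the *TRPS1* siRNA libraries did not overlap with control. Without control siRNA replicate 1 *TGFB3* was at -0.26 and -0.13.

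**Figure D3:**
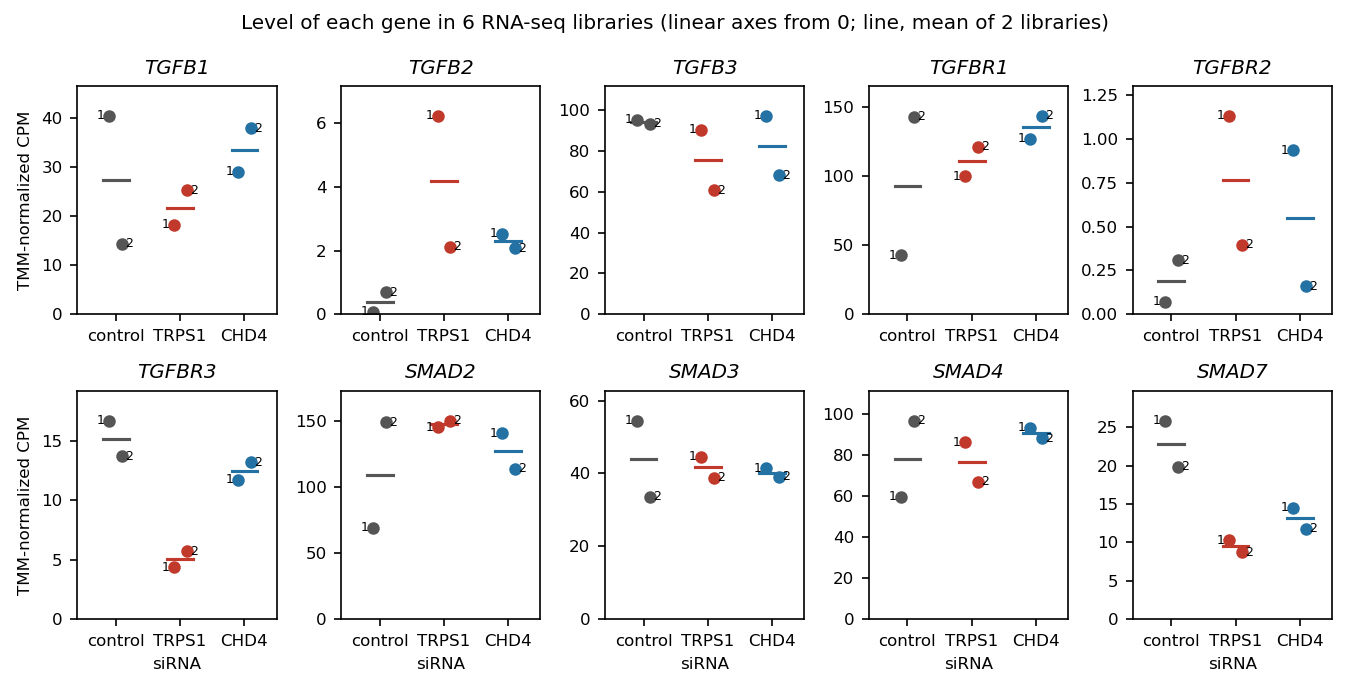
Level of each of the 10 genes in the 6 RNA-seq libraries, in TMM-normalised CPM on linear axes from 0, with the replicate number beside each point and a line at each group mean (n = 2 libraries a group). Both *TGFB2* control libraries lie below all 4 silenced libraries, and for *TGFBR3* and *SMAD7* the *TRPS1* siRNA libraries are the lowest of the 6.

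Of the receptors, *TGFBR3* had the largest difference. The co-receptor lies at chr1:91680343-91906002 on the minus strand, 2212 kb from the nearest TRPS1 peak. It was at 16.7 and 13.7 CPM with control siRNA, 4.35 and 5.69 CPM with *TRPS1* siRNA, and 11.7 and 13.2 CPM with *CHD4* siRNA. The *TRPS1* siRNA libraries lay below all others, and the *CHD4* siRNA libraries lay below both control libraries, by a narrow margin for one of them.

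With *TRPS1* siRNA the *TGFBR3* log2 fold change was -1.58 ± 0.46 (edgeR's quasi-likelihood test, unadjusted p = 0.0121, adjusted p = 0.659). Without control siRNA replicate 1 it was -1.39 (edgeR adjusted p = 0.0701), and without control siRNA replicate 2 it was -1.74 (edgeR adjusted p = 0.00423). Without *TRPS1* siRNA replicate 1 or 2 it was -1.40 and -1.76, and neither value passed the study's threshold. With *CHD4* siRNA the difference from control was within its error (-0.28 ± 0.44, and -0.082 without control siRNA replicate 1). Between the silenced groups it was 1.31 ± 0.26 higher with *CHD4* siRNA (edgeR's quasi-likelihood test, unadjusted p = 0.00254, adjusted p = 0.12). This was the single value of the 10 genes past the study's threshold in that comparison, against 3.67% of 13143 genes tested (2.12% higher and 1.56% lower). Its adjusted p was under 0.05 with the likelihood ratio test, with DESeq2 and without the filter on low counts.

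*TGFBR1*, the signalling type I receptor, was at 42.6 and 143 CPM with control siRNA, 100 and 122 CPM with *TRPS1* siRNA, and 127 and 144 CPM with *CHD4* siRNA. The control libraries lay on both sides of the *TRPS1* siRNA libraries. The log2 fold changes against control were 0.28 ± 0.56 and 0.57 ± 0.55, and -0.32 and -0.03 without control siRNA replicate 1.

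*TGFBR2*, the type II receptor that binds ligand first, was barely detected. Its counts were 1 and 4 with control siRNA, 12 and 6 with *TRPS1* siRNA, and 10 and 2 with *CHD4* siRNA. In 2 of the 6 libraries it was under 3 counts, and no library exceeded 1.13 CPM. The ratio of summed counts with *TRPS1* siRNA was 3.76 (exact 95% interval 1.35 to 13.0), but 2.27 (0.747 to 9.21) without control siRNA replicate 1. With *CHD4* siRNA it was 2.78 (0.913 to 10.1), and 1.68 (0.508 to 7.13) without that library. At this depth a difference in *TGFBR2* that also holds without that control library was not detectable.

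Of the SMADs, the inhibitory *SMAD7*, which had the peak inside its gene, differed most. It was at 25.9 and 19.8 CPM with control siRNA, 10.3 and 8.73 CPM with *TRPS1* siRNA, and 14.5 and 11.8 CPM with *CHD4* siRNA. No groups overlapped, in the order control siRNA, *CHD4* siRNA, *TRPS1* siRNA.

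With *TRPS1* siRNA the *SMAD7* log2 fold change was -1.26 ± 0.41 (edgeR's quasi-likelihood test, unadjusted p = 0.0197, adjusted p = 0.659). It was -1.02 without control siRNA replicate 1 (edgeR adjusted p = 0.0971) and -1.47 without control siRNA replicate 2 (edgeR adjusted p = 0.00433). Without *TRPS1* siRNA replicate 1 or 2 it was -1.38 and -1.11, neither past the study's threshold. With *CHD4* siRNA it was -0.79 ± 0.43 (edgeR adjusted p = 0.792), and -0.54 without control siRNA replicate 1. *CHD4* siRNA against *TRPS1* siRNA gave 0.47 ± 0.24 (edgeR adjusted p = 0.428). The gene with the intragenic peak was thus lower, and the gene with the upstream peak (*TGFB2*) higher, than in control siRNA in both silenced groups.

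None of the 3 signalling SMADs passed either threshold with all libraries. *SMAD2* was at 69.1 and 149 CPM with control siRNA, 145 and 150 CPM with *TRPS1* siRNA, and 141 and 114 CPM with *CHD4* siRNA. *SMAD3* was at 54.5 and 33.6 CPM, 44.6 and 38.8 CPM, and 41.4 and 39.0 CPM in the same order. *SMAD4*, the shared partner of the receptor-regulated SMADs, was at 59.5 and 96.8 CPM, 86.1 and 67.0 CPM, and 93.3 and 88.2 CPM.

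For all 3 the control libraries spanned a wider range than either silenced group. Their log2 fold changes against control ran from -0.13 for *SMAD3* with *CHD4* siRNA to 0.46 for *SMAD2* with *TRPS1* siRNA, each with a standard error of 0.38 to 0.45. Without control siRNA replicate 1, *SMAD2* was at 0.03 with *TRPS1* siRNA and -0.18 with *CHD4* siRNA, *SMAD3* at 0.36 and 0.31, and *SMAD4* at -0.29 and -0.042. *SMAD3* reads may include those of *SMAD3-AS1*, which overlaps it.

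Without control siRNA replicate 2, leaving only the library that stood apart, 6 of the 10 genes had an adjusted p under 0.05 with *TRPS1* siRNA (*TGFB1*, *TGFB2*, *TGFBR1*, *TGFBR3*, *SMAD2*, *SMAD7*), and so did 6070 genes of the whole table. With *CHD4* siRNA it was 3 of the 10 (*TGFB2*, *TGFBR1*, *SMAD2*) and 3874 genes of the table. Such a fit assumes that the lone control library varies like the silenced ones. With all libraries, the direct comparison of *CHD4* siRNA with *TRPS1* siRNA used no control library. There 6 of the 9 tested genes did not overlap, with *TGFB1*, *TGFBR1*, *TGFBR3*, *SMAD4* and *SMAD7* higher and *SMAD2* lower with *CHD4* siRNA, against 46.7% of all genes tested (23.1% higher and 23.7% lower). None passed the adjusted threshold, nor did any other gene of that table, while 2023 genes (15.4%) had an unadjusted p under 0.05, 570 were called by the likelihood ratio test and 456 by DESeq2. That fit did not pair the replicates, whose deviations correlated at 0.615 between the silenced groups. With replicate number added to the fit as a block, 3372 genes passed, *TGFB1* and *TGFBR3* among them.

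The genes most like *TGFB2* over the 6 libraries were *TMPRSS4*, *SLC5A12* and *TOB2P1*, by the root-mean-square difference of log2 CPM after each gene's mean was subtracted, among 12691 genes. These differences were 0.347, 0.387 and 0.391. *TMPRSS4*, a membrane serine protease, had 2 and 6 counts with control siRNA, 69 and 51 with *TRPS1* siRNA, and 36 and 28 with *CHD4* siRNA. *SLC5A12* had 0 and 10, 49 and 43, and 31 and 37 counts. As for *TGFB2*, few control reads underlie the likeness.

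Other genes of the pathway were counted in lists of known members, with the genes past the study's threshold also counted without control siRNA replicate 1. That fit has 1 control library, and a larger share of all genes tested passed in it than with both control libraries. Passing there is therefore not read as particular to the pathway. Some genes, *LTBP2*, *PMEPA1* and *SKIL* among them, stand in more than 1 list. Genes named only for the count without that library were named after their values were seen. Of 23 other ligands of the superfamily, 8 were tested with *TRPS1* siRNA. *INHBB*, the activin B subunit, passed the study's threshold, at 120 and 75.8 CPM with control siRNA, 55.3 and 38.8 CPM with *TRPS1* siRNA, and 78.4 and 57.8 CPM with *CHD4* siRNA (-1.05 ± 0.41 with *TRPS1* siRNA, edgeR adjusted p = 0.659). Groups did not overlap for 3 of the 8, all lower with *TRPS1* siRNA, against 22.5% of all genes lower and 44.0% in either direction, and *BMP4*, a bone morphogenetic protein, was among them at -0.95 ± 0.50. *GDF11* was at -0.60 ± 0.46 with overlapping libraries. With *CHD4* siRNA no ligand of 10 tested passed. *INHBB* was at -0.64 with *TRPS1* siRNA without control siRNA replicate 1 and no longer passed, while *AMH* passed as higher, and the list's median went from -0.37 to 0.04. *GDF15* in both comparisons, and *INHBE* with *CHD4* siRNA, then entered the tested set only through the silenced libraries. The remaining control library had 15 and 8 counts of these genes. They had to be higher, so no test is read from them.

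Of 11 other receptors, 9 were tested in each comparison. With *TRPS1* siRNA none passed the study's threshold, and 4 did not overlap with control, all higher, against 44.0% of all genes in either direction and 21.5% higher. One of them was *BMPR2*, the BMP type II receptor, at 73.9 and 109 CPM with control siRNA, 169 and 160 CPM with *TRPS1* siRNA, and 96.3 and 89.2 CPM with *CHD4* siRNA (0.86 ± 0.35, edgeR unadjusted p = 0.0439, adjusted p = 0.659). *BMPR1A*, also of the 4, was at 0.37 ± 0.35, and *ACVR1B*, the activin type I receptor, overlapped at -0.12 ± 0.37. With *CHD4* siRNA *BMPR1B* passed, with 25 and 88 counts in control siRNA, 72 and 92 with *TRPS1* siRNA, and 279 and 164 with *CHD4* siRNA (2.21 ± 0.71, edgeR adjusted p = 0.792). It was also past the study's threshold against *TRPS1* siRNA, at 1.61 ± 0.37 (edgeR adjusted p = 0.148). When control siRNA replicate 1 was left out, *BMPR2* was at 0.64 with *TRPS1* siRNA and *BMPR1B* at 1.58 with *CHD4* siRNA, the single receptor past the study's threshold. The median of the receptors with *TRPS1* siRNA was 0.52, and 0.13 without that library. *BMPR1B* did not pass without *CHD4* siRNA replicate 1 (1.66).

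None of the 4 other SMADs passed. *SMAD1* and *SMAD5*, which relay BMP signals, were at 0.15 ± 0.36 and -0.09 ± 0.42 with *TRPS1* siRNA. None of 12 tested genes of ligand latency and activation passed against control either. *THBS1*, an activator of latent ligand, was at 0.23 ± 0.32 with *TRPS1* siRNA, the latent-binding protein gene *LTBP3* at -0.14 ± 0.44 and the integrin gene *ITGB1* at -0.56 ± 0.35. When control siRNA replicate 1 was left out, *LTBP2* passed as higher in both comparisons, and *LTBP4* and *FURIN* with *CHD4* siRNA. No other SMAD passed then either.

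Of 21 tested SMAD cofactors and regulators, none passed against control with all libraries. With control siRNA replicate 1 left out, *PMEPA1* passed as higher with *CHD4* siRNA (1.49) and none with *TRPS1* siRNA. *SKIL*, a SMAD co-repressor, had 990 and 3177 counts with control siRNA, 4431 and 3648 with *TRPS1* siRNA, and 2656 and 2591 with *CHD4* siRNA. Its low library was control siRNA replicate 1, and its log2 fold change of 1.09 ± 0.61 with *TRPS1* siRNA came from overlapping groups in CPM. *STRAP*, which stabilises SMAD7 on the receptor, was at -0.14 ± 0.31 with *TRPS1* siRNA and -0.84 ± 0.35 with *CHD4* siRNA (edgeR unadjusted p = 0.0433, adjusted p = 0.792). *USP9X*, a deubiquitinase of SMAD4, was at 0.02 ± 0.44 and 0.09 ± 0.45.

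**Figure D4:**
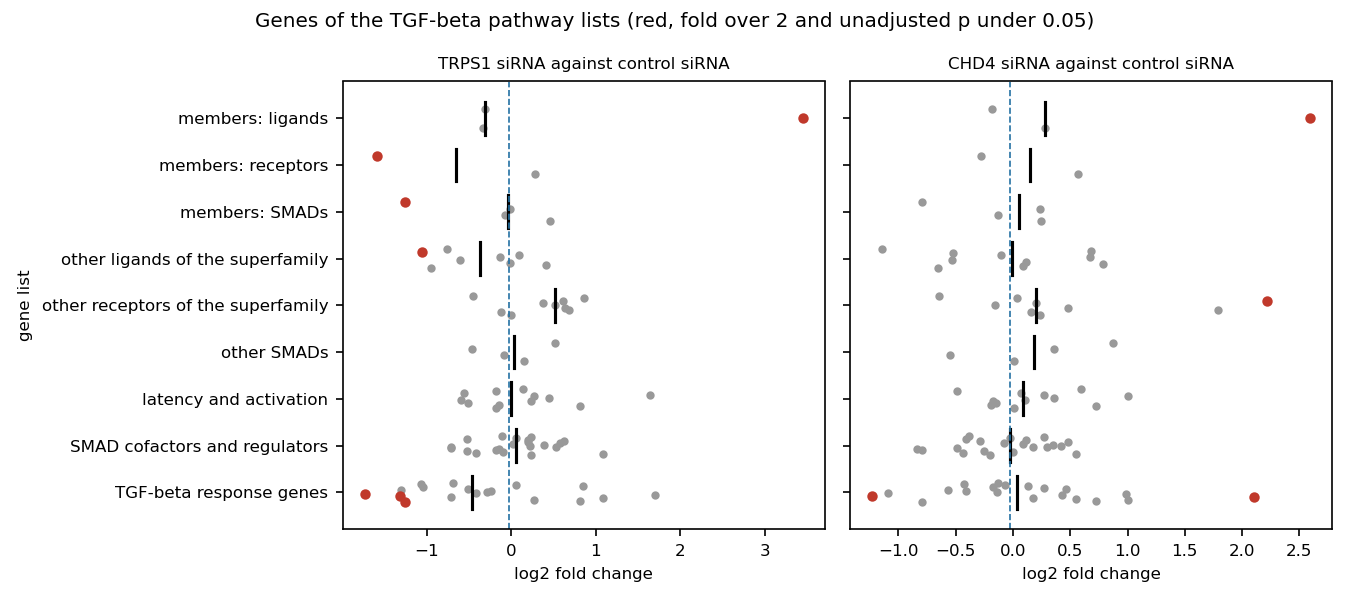
Log2 fold change against control siRNA of the tested genes of each pathway list, 1 point a gene, for *TRPS1* siRNA (left) and *CHD4* siRNA (right), with a black line at the list median, a dashed line at the median of all genes tested (-0.02) and red points past the study's threshold. The response genes, which include *SMAD7*, have a median of -0.46 with *TRPS1* siRNA and 0.03 with *CHD4* siRNA.

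Of 28 known TGF-beta response genes, 18 were tested with *TRPS1* siRNA. The 3 past the study's threshold were all lower: *SMAD7* itself, *CDKN1A*, the cell cycle inhibitor p21, at -1.32 ± 0.47, and *JUNB*, an AP-1 subunit, at -1.73 ± 0.72, against 5.87% of all genes tested. Groups did not overlap for 8 lower and 3 higher genes, against 22.5% and 21.5% of all genes, and the list's median was -0.46. *JUNB* was at 67.6 and 14.8 CPM with control siRNA and 12.9 and 12 CPM with *TRPS1* siRNA, and without control siRNA replicate 1 its log2 fold change was -0.20. *CDKN1A* was at 206 and 97.9 CPM with control siRNA, 52.1 and 70.0 CPM with *TRPS1* siRNA, and 56.2 and 73.4 CPM with *CHD4* siRNA, without overlap. With that control library left out it was at -0.64 with *TRPS1* siRNA and -0.54 with *CHD4* siRNA and passed in neither. The list's median with *TRPS1* siRNA was then -0.04, against 0.02 over all genes tested. Without control siRNA replicate 2 the list's median was -0.79, against 0.03 over all genes tested.

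With *CHD4* siRNA 20 response genes were tested and their median was 0.03. *CDKN1A* passed the study's threshold at -1.23 ± 0.47. The median was 0.32 without control siRNA replicate 1, against 0.01 over all genes tested. *FN1*, fibronectin, was at -0.29 ± 0.31 and -0.41 ± 0.35 with *TRPS1* and *CHD4* siRNA, and *BHLHE40* at -0.69 ± 0.36 and -0.13 ± 0.42. In the direct comparison 11 of 21 response genes were higher with *CHD4* siRNA without overlap and 3 lower, against 23.1% and 23.7% of all genes, with a median of 0.47.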

How the data were processed

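The authors aligned ChIP-seq reads with BWA 0.7.12-r1039 and called peaks with MACS2 2.1.1. STAR was their aligner for RNA-seq, and HTSeq 0.9.0 gave the gene counts. The build was hg38 per the labels. Their deposited tables hold raw counts for *TRPS1* siRNA with control siRNA and for *CHD4* siRNA with control siRNA, and the deposited peak list holds positions in bp (1 list for both ChIP libraries, with no score). How the counting used strand was not given in the sources used here. Counts were tested with edgeR 4.0.16 (R 4.3.3) by the quasi-likelihood test, with TMM normalisation, in genes that reached over 2 CPM in 2 or more of the libraries compared, with a prior count of 0.125. Standard errors were taken as the log2 fold change over the square root of F. Fits used only the groups compared, and p-values were adjusted over all genes tested by the Benjamini-Hochberg method, at 0.05. The study's threshold was a fold change over 2 with an unadjusted p under 0.05. Levels are CPM with TMM factors from all 6 libraries, whose depth was 10333138 to 14668358 counts. A gene under 3 counts in a library was taken as not measurable there. The 711 genes only in the *CHD4* table and the 722 only in the *TRPS1* table were taken as 0 in the missing libraries. Gene positions, starts and promoter sequences came from RefSeq tables (GRCh38.p14), and no position was converted between builds. Intervals of count ratios are exact and cover counting error only. The test code was tested on simulated data. Python 3.11.15 with SciPy 1.17.1 was used for all other steps.

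Genes named from the lists were those past the study's threshold against control and the 3 of highest mean CPM in each list. The 10 genes, the lists and the tests were chosen with earlier results of these data known. Alternatives were DESeq2 1.42.0, the likelihood ratio test, other normalisations and filters, a replicate block, all 6 libraries in one fit, other peak distances and leaving out each library. Leaving libraries out of the pathway lists, and leaving them out for *TGFB2* with no filter, were chosen after seeing the data. The values of 1 response gene named by this rule are not reported here.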

Additional observations from a re-analysis of the deposited data

Results flagged for a closer look

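In 3 genes of the pathway lists the silenced groups lay on opposite sides of control siRNA in every library. The share of all genes with this pattern was not counted, so nothing particular to the pathway is read from it. Of all genes tested, 44.0% with *TRPS1* siRNA and 39.5% with *CHD4* siRNA did not overlap with control in either direction. *SMAD6*, the inhibitory SMAD of BMP signalling, was at -0.47 with *TRPS1* siRNA and 0.36 with *CHD4* siRNA against control, and the difference between them was 0.84 ± 0.28 (edgeR's quasi-likelihood test, adjusted p = 0.246). Its levels were 7.91 and 5.48 CPM with control siRNA, 5.48 and 4.17 CPM with *TRPS1* siRNA, and 8.35 and 8.80 CPM with *CHD4* siRNA, so the lower control library and the higher *TRPS1* siRNA library were the same to 3 digits. *ID2*, a BMP and TGF-beta response gene, was at -0.51 and 0.27, with a difference of 0.78 ± 0.21 (edgeR adjusted p = 0.188). *TRIM33*, a ubiquitin ligase that acts on SMAD4, was at 0.63 and -0.29, with a difference of -0.91 ± 0.15 (edgeR adjusted p = 0.101). Its levels were 165 and 233 CPM with control siRNA, 325 and 284 CPM with *TRPS1* siRNA, and 162 CPM in both *CHD4* siRNA libraries. None of the 3 differences passed the adjusted threshold, and *ID2* and *TRIM33* were named after their values were seen.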

How the results depend on the processing

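Over settings that kept all libraries, 67 of 71 log2 fold changes of the 10 genes kept their direction with *TRPS1* siRNA, 70 of 71 with *CHD4* siRNA and 72 of 72 between the silenced groups. Library sizes alone moved the median of all genes by 0.13 and turned *SMAD3* to 0.056 and *SMAD4* to 0.11 with *TRPS1* siRNA, and *SMAD3* to 0.0029 with *CHD4* siRNA. *SMAD4* also turned with over 2 CPM asked in every library (0.041) and with the replicate block (0.012). DESeq2 and that stricter filter, which drops *TGFB2*, each left 0 genes past the study's threshold with *CHD4* siRNA. Between the silenced groups, 1 gene (*TGFBR3*) passed the adjusted threshold with the likelihood ratio test, DESeq2 or no filter (at 1.3, 1.31 and 1.3), and 2 (*TGFB1* at 0.63, *TGFBR3* at 1.31) with the replicate block, which called 3372 genes of the whole table there, 32 with *TRPS1* and 44 with *CHD4* siRNA against control. The replicate numbers carry no stated batch, and the samples were not treated as paired in the main fits. Replicate deviations correlated at 0.0516 and 0.00981 with control, but at 0.615 between the silenced groups. The main fit of the direct comparison thus leaves out a deviation that the replicates of both silenced groups shared, and its cause was not tested. Peaks within 50 kb and within 100 kb both gave 3 genes. A stricter peak threshold was not run, since the list has no score. Leaving out each library gave 0 to 6 genes at the adjusted and 0 to 5 at the study's threshold with *TRPS1* siRNA, 0 to 3 and 0 to 2 with *CHD4* siRNA, and 1 to 2 at the study's threshold between the silenced groups. Signs turned there with *TRPS1* siRNA for *TGFB1* (-0.91 to 0.64), *TGFBR1* (-0.32 to 1.36), *SMAD3* (-0.41 to 0.36) and *SMAD4* (-0.29 to 0.34), with *CHD4* siRNA for *TGFB1* (-0.29 to 1.27), *TGFB3* (-0.44 to 0.073), *TGFBR1* (-0.026 to 1.65), *SMAD2* (-0.18 to 0.86), *SMAD3* (-0.46 to 0.31) and *SMAD4* (-0.042 to 0.59), and between the silenced groups for *TGFB2* (-1.43 to 0.13), *TGFB3* (-0.15 to 0.45) and *SMAD3* (-0.15 to 0.061). When a control library is left out, the counted genes include *TGFB2*, which had to differ because it is tested only through the silenced libraries. *TGFB2* leaves the filtered table when a silenced library is left out, and without the filter, an alternative chosen after seeing the data, its values ran from 2.43 to 5.66, from 1.72 to 4.80 and from -1.43 to 0.11. The causes were not tested. With 2 libraries a group, differences within the control spread were not detectable.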
